A study of Mus musculus with 224 samples.

Results

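Transcripts of 10 genes of hepcidin production and iron handling were followed in mouse liver, soleus muscle and visceral adipose tissue. The genes were the hepcidin genes Hamp and Hamp2, the upstream regulators Bmp6, Hfe and Tfr2, the transferrin receptor gene Tfrc, the transferrin gene Trf, the iron exporter gene Slc40a1, and the ferritin subunit genes Fth1 and Ftl1. They were chosen by gene symbol, through the Ensembl identifier of each row, and all 10 had a row in each tissue: 10 of 12611 genes in liver, 10 of 13637 in muscle and 10 of 16542 in adipose tissue. Mice of the inbred strains BALB/cJ, C57Bl/6J and DBA/2J received regular chow (RC) or a diet high in fat (HFD), and tissues were labelled day 5, 13 or 33. This gave 18 groups of 4 animals, 36 animals on each diet. A library of each of the 3 tissues was analysed under the label of each of the 72 animals. The adipose libraries labelled 3HF201 and 3HF208 did not match their labelled strain, as described further down. The RC animals of the same strain and day served as controls for HFD. The labels name no engineered allele and no drug, and give neither age nor sex. RNA-seq libraries (poly(A)-selected, stranded, single reads) held 18078000 to 31991000 reads over the listed genes for liver, 19945000 to 33370000 for muscle and 19783000 to 46795000 for the adipose libraries. All libraries are of whole tissue, in which fewer cells of a type and less RNA per cell cannot be told apart. The labels give each animal its own number within a strain and diet, so p-values measure the spread between these animals.

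Hepcidin is a peptide hormone made mainly by hepatocytes. It binds ferroportin, the product of Slc40a1 and the only known cellular exporter of non-haem iron, and causes its removal from the membrane, so that less iron enters the blood. BMP6 from liver sinusoidal endothelial cells, together with HFE and transferrin receptor 2 on hepatocytes, raises Hamp transcription through SMAD proteins, and interleukin 6 raises it through STAT3. Transferrin receptor 1 (Tfrc) takes up transferrin-bound iron, ferritin stores it, and the mRNAs of both are controlled by iron regulatory proteins after transcription.

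Hamp (ENSMUSG00000050440.8, GRCm38 chromosome 7, 30942368 to 30944032, minus strand) and Hamp2 (ENSMUSG00000056978.8, chromosome 7, 30922372 to 30924681, minus strand) are neighbouring copies. The Hamp transcript was 94.6% identical to 2 of 3 Hamp2 transcripts, over 388 of 410 aligned bases, and 84.4% identical to the other, over 330 of 391. None of the 100-base windows of either gene matched the other gene exactly. The 250 bases before each start are shown because both genes were lower on HFD in liver while their levels differed between strains in different ways. The sequences are from the RefSeq promoter table (GRCm38.p6) and stand for the reference strain, C57Bl/6J; Hamp is at chr7:30944030-30944279 and Hamp2 at chr7:30924182-30924431, both on the minus strand. Capitals mark matches to GGCGCC, the core of the BMP response element, and to TTCNNNGAA, a STAT site.
Hamp: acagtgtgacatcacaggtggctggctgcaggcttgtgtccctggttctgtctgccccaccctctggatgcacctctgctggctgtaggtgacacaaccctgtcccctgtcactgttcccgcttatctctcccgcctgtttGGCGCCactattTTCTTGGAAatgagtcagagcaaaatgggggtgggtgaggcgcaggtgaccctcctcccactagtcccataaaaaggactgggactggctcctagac
Hamp2: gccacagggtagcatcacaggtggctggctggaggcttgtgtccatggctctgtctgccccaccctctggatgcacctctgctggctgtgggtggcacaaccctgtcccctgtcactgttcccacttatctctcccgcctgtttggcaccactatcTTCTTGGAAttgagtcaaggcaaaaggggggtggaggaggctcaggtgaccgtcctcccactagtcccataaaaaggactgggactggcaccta
The sequences aligned over 247 bases with 20 differences. The GGCGCC of Hamp began 109 bases before the start (position -109), and the aligned bases of Hamp2, at -106, carried the substitution G4A, counted from 1 at the 5′ end of the motif. The STAT match TTCTTGGAA was present in both, at -97 in Hamp and at -94 in Hamp2. Searched on both strands, GGCGCC occurred in 9.59% and TTCNNNGAA in 7.02% of 32851 promoter windows of the same length. A match describes letters in this window only, and the sequences of DBA/2J and BALB/cJ were not used here.

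Levels per kilobase of exon, the scale on which genes can be compared, differed widely among the 10 genes. Each tissue's table was normalized separately, so levels are ordered within a tissue and were not tested between tissues. In liver, the median over 72 libraries was 1256 CPM (read counts scaled to library size) per kb for Ftl1, the ferritin light chain, and 987 for Hamp. It was 406 for Fth1, the ferritin heavy chain, 299 for Trf, 96.1 for Tfr2, 39.002 for Hamp2, 18.1 for Slc40a1, 11.2 for Hfe and 4.26 for Tfrc. Bmp6 was lowest at 0.629 CPM per kb, resting on 16 to 130 reads a library. Hamp2 covered the widest range, 1.76 to 3717 CPM per kb. In soleus muscle Fth1 led with 431 CPM per kb, followed by Ftl1 at 65.8 and Tfrc at 32.3. In adipose tissue Fth1 stood at 505, Ftl1 at 448 and Trf at 30.1. In muscle Hamp and Tfr2 were near the detection limit, with a median of 5.5 reads each and 0 reads in 13 and 5 libraries. In adipose tissue their medians were 41.5 and 27.5 reads, and Hamp stood at 3.37 CPM per kb, above Bmp6 at 3.13. The Trf and Ftl1 levels carry an uncertainty of assignment, because 62.8% of 100-base windows of Trf matched the same-strand locus Gm20425 and 54.2% of those of Ftl1 matched other loci, mostly the pseudogene Ftl1-ps1.

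In adipose tissue 2 libraries stood apart. The libraries labelled 3HF201 (BALB/cJ, HFD, day 5) and 3HF208 (BALB/cJ, HFD, day 33) had Ins2, an insulin gene of pancreatic islets, at 17.8 and 18.4 log2 CPM, against a median of -3.81 and a highest value of 8.19 in the other 70. Islet genes were also present, at a far lower level, in the other 14 BALB/cJ libraries of days 5 and 33 on both diets. The mean of 6 islet genes was 2.43 to 5.15 log2 CPM there, against 14.8 and 15.5 in those 2 libraries and -3.81 to -2.18 in BALB/cJ at day 13, so leaving out the 2 does not remove this signal. Adipoq, the adipocyte hormone adiponectin, was at 2.79 and 3.61 against a median of 11.1. On a set of strain-dependent genes, 3HF201 scored 3.41 for DBA/2J, inside the range of DBA/2J libraries (3.12 to 4.59), and 3HF208 scored 4.38 for C57Bl/6J (range 4.32 to 6.12). Both scored below the BALB/cJ libraries on the BALB/cJ genes (-5.84 and -6.15 against 2.73 to 4.33). Adipose diet results are therefore given with and without these 2 libraries. The animals' numbers fall into a lower, a middle and an upper range with gaps between them, which the labels do not call batches. The ranges hold the strains unevenly. All DBA/2J animals of days 5 and 33 are in the lower range, and no DBA/2J animal on RC is in the upper range. Most C57Bl/6J animals are in the middle and upper ranges. Differences between ranges therefore cannot be fully told apart from differences between strains. All DBA/2J animals of day 13 are in the middle or upper range, so in that strain day 13 cannot be told apart from range. Values within each range are given beside pooled liver and muscle results.

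In liver, most of the iron genes passed between diets when all animals were fitted together. Of the 10 genes, 8 passed an adjusted p of 0.05 (limma, Benjamini-Hochberg over all genes tested), 1 higher and 7 lower, against a background of 21.2% of all genes tested (10.9% higher and 10.3% lower). The median difference of the 10 genes was -0.14 log2, against 0.0074 over all genes. Both hepcidin genes, Bmp6, Hfe, Trf and both ferritins were lower on HFD, and Tfrc was higher. Tfr2 and Slc40a1 did not pass. Hepatocyte markers moved with these results: 4 of 5 were lower (median -0.21 log2), and their score, the mean log2 CPM, ran from 12.6 to 13.4 on HFD (median 12.9) and from 12.9 to 13.4 on RC (median 13.2). Of 6 erythroid markers 3 were lower (median -0.44), of 8 macrophage markers 1 was higher, and none of 6 sinusoidal endothelial or 2 measured lymphoid markers passed. The part of these cell types in the iron gene results was not tested. After quantile normalization 5 of the 10 genes passed, and Hfe, Fth1 and Ftl1 no longer did. With fewer animals, fits inside a single range passed 4 genes (lower), 1 (middle) and 1 (upper). Leaving out single libraries ended the call in 46 of 72 cases for Hfe and 28 for Bmp6. Earlier results of these data were known when the 10 genes were chosen, so their share against the background is not independent support.

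**Figure D1:**
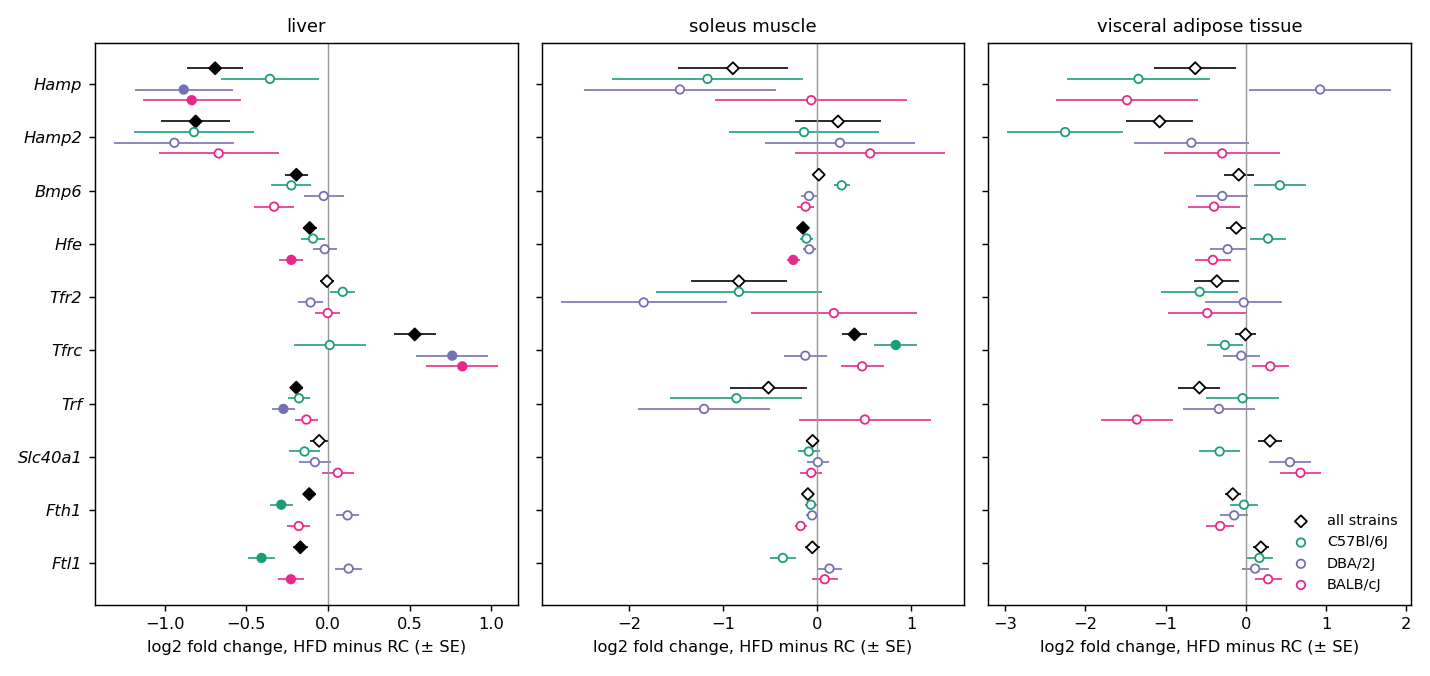
Difference between HFD and RC for the 10 genes in liver, muscle and adipose tissue, on the log2 scale with the standard error as bars. Diamonds show all strains together, circles each strain, and filled symbols passed an adjusted p of 0.05; in liver all filled diamonds except that of Tfrc lie below 0.

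Hamp, the iron-regulated hepcidin gene, was at 137 to 947 CPM (median 497) in the 36 RC livers and at 53.9 to 831 CPM (median 318) in the 36 HFD livers. The groups overlapped, and the low end was held by HFD animals. The difference was -0.69 log2 (SE 0.17, adjusted p = 0.0024), a 1.62-fold lower level. The HFD mean was lower in 8 of 9 combinations of strain and day. Within the number ranges the difference was -1.01 (lower, adjusted p = 0.014), -0.56 (middle, 0.52) and -0.38 (upper, 0.49).

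By strain, 3 of 10 genes changed in DBA/2J, Hamp among them (21.6% of all genes passed there). Hamp in DBA/2J had a median of 173 CPM on HFD and 350 on RC, a difference of -0.88 (SE 0.30, adjusted p = 0.026). The call was lost without any one of 2HF202 and 2HF203 of day 5 and 2RC228 of day 13, with adjusted p up to 0.061 and a difference of -0.78 or larger in size. In BALB/cJ 4 of 10 genes passed (background 14.8%). Hamp there had medians of 462 and 715 CPM, and the difference of -0.84 was at the threshold (adjusted p = 0.0494). Without animal 3HF201 (HFD, day 5) the BALB/cJ value was -0.54 (adjusted p = 0.17), and after quantile normalization it was -0.72 (adjusted p = 0.11). In C57Bl/6J, with medians of 416 and 497 CPM, the difference of -0.36 did not pass (adjusted p = 0.71), among 2 of 10 genes that passed (background 2.31%). The diet effects on Hamp were not shown to differ between strains: DBA/2J minus C57Bl/6J was -0.53 (95% interval -1.38 to 0.32) and BALB/cJ minus C57Bl/6J was -0.48 (-1.33 to 0.37).

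At single days the animals varied. The 4 DBA/2J livers on HFD at day 13 had 98.9, 143, 180 and 109 CPM of Hamp, and the 4 on RC had 653, 321, 279 and 380. This was the only combination without overlap, and its difference of -1.58 did not pass (adjusted p = 0.097). In BALB/cJ at day 5 the HFD animals had 53.9, 743, 831 and 371 CPM and the RC animals 786, 859, 947 and 755. One HFD animal was far below the rest, and 2 lay close to or within the RC values. In DBA/2J at day 5 the HFD animals had 376, 166, 96.5 and 75.1 CPM and the RC animals 220, 137, 198 and 286, with broad overlap.

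Hamp2, the second hepcidin gene of the mouse, was at 4.42 to 2167 CPM (median 27.3) on RC and at 1.03 to 1139 CPM (median 16.9) on HFD. Nearly all of that range lay between strains, described further down. The diet difference across strains was -0.81 log2 (SE 0.21, adjusted p = 0.0037), a 1.76-fold lower level, with a lower HFD mean in 7 of 9 combinations. It was -1.34 in the lower number range (adjusted p = 0.0022), -0.73 in the middle range (0.34) and -0.39 in the upper range (0.78). In no single strain did Hamp2 pass; the difference was -0.67 in BALB/cJ, -0.82 in C57Bl/6J and -0.94 in DBA/2J. The clearest separation was in DBA/2J at day 33, with 550, 341, 733 and 357 CPM on HFD and 1132, 2167, 1530 and 2014 CPM on RC. Every HFD animal was below every RC animal there, the difference was -1.82 (adjusted p = 0.041), and it lost the threshold after quantile normalization (-1.69, adjusted p = 0.051). In C57Bl/6J at day 33 Hamp2 was at 10.1, 10.7, 2.74 and 1.03 CPM on HFD and 30.5, 10.3, 9.90 and 14.4 on RC, so that 2 of the 4 HFD animals lay below all RC animals.

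Across the 72 livers, after removing the group means, Hamp and Hamp2 had a Pearson r of 0.22 (permutation p = 0.36, adjusted p = 0.54 over 12 relations) and a Spearman rho of 0.40 (permutation p = 0.0030, adjusted p = 0.036). Leaving out the 2 libraries farthest from the median gave r = 0.37, and the ranges of animal numbers gave 0.22, 0.37 and 0.31. Hamp and Tfrc had r = -0.36 (permutation p = 0.069, adjusted p = 0.30) and rho = -0.32 (permutation p = 0.029, adjusted p = 0.15), with r = -0.31 without the 2 farthest libraries and -0.47, -0.45 and -0.46 in the ranges. None of the 12 relations passed on Pearson's r.

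The genes most like each in liver were taken by Pearson's r over the 18 group means, among 6178 genes, as a description. For Hamp they were Itm2b (r = 0.84), Setd3 (0.80) and Prdx5 (0.80). For Hamp2 they were Asgr2 (0.97), Fam213a (0.97) and Lyplal1 (0.97), in groups where DBA/2J stood apart from the other strains. For Tfrc they were Agps (0.92), Smarcb1 (0.85) and Ptcd2 (0.84). The group means share strains, diets and days.

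**Figure D2:**
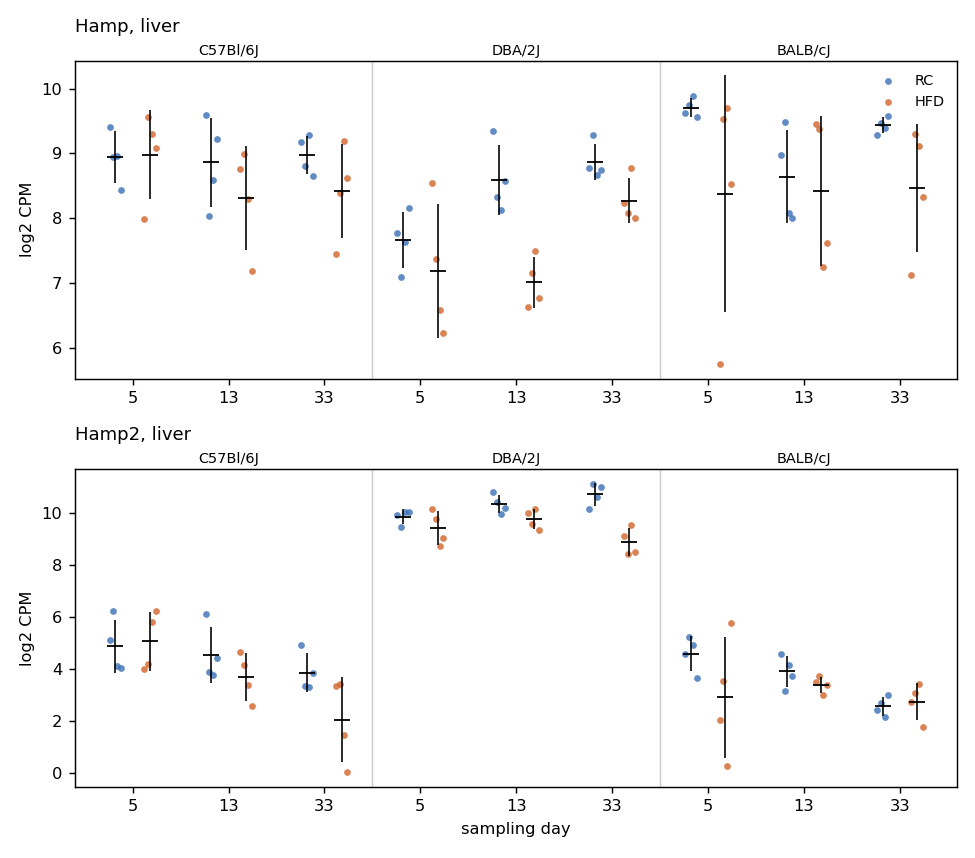
Hamp and Hamp2 in liver, log2 CPM for each animal by strain and day, RC in blue and HFD in orange, with bars at the mean ± SD of 4 animals. Hamp2 in DBA/2J lies far above the other strains on both diets, and Hamp in DBA/2J at day 13 separates the diets without overlap.

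Among the regulators, Bmp6 and Hfe were lower on HFD by small amounts. Bmp6, the ligand that raises hepcidin, was at 1.45 to 4.71 CPM (median 2.52) on RC and 0.655 to 4.41 CPM (median 2.36) on HFD. The difference was -0.19 (SE 0.071, adjusted p = 0.042), and it was -0.20, -0.35 and -0.08 in the lower, middle and upper ranges, none of which passed. Bmp6 passed in 2 combinations of strain and day. In C57Bl/6J at day 13 the HFD livers had 2.59, 2.03, 2.35 and 2.37 CPM and the RC livers 4.20, 4.53, 4.67 and 4.65, without overlap (-0.95, adjusted p = 0.017; background 0.317%). In BALB/cJ at day 5 the HFD livers had 1.41, 1.40, 0.655 and 0.895 CPM and the RC livers 2.03, 2.01, 1.45 and 2.08, again without overlap (-0.85, adjusted p = 0.0056; background 12.5%). Without HFD animal 3HF203 the latter was -0.63 (adjusted p = 0.071), and its adjusted p was 0.23 when only the animals compared were fitted. Bmp6 overlaps the opposite-strand gene Txndc5.

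Hfe, which encodes a partner of the transferrin receptors, was at 30.2 to 59.7 CPM (median 40.4) on RC and 21.3 to 56.5 CPM (median 39.9) on HFD, with broad overlap. The difference of -0.11 was at the threshold (SE 0.043, adjusted p = 0.049); quantile normalization (adjusted p = 0.065) and number range as a covariate (adjusted p = 0.092) each ended the call. Within ranges it was 0.05, -0.19 and -0.25, opposite in the lower range, and none passed. Hfe fell in BALB/cJ (-0.23, adjusted p = 0.030, or 0.076 with only the animals compared). In BALB/cJ at day 13 the HFD livers had 21.3, 23.5, 30.7 and 26.7 CPM and the RC livers 33.02, 30.2, 41.9 and 42.6; the highest HFD value only just exceeded the lowest RC value (-0.53, adjusted p = 0.037, or 0.45 with only the animals compared; background 0.365%). Tfr2, the hepatocyte iron sensor, was at 345 to 565 CPM (median 414) on RC and 268 to 630 CPM (median 419) on HFD, with a difference of -0.01 (95% interval -0.10 to 0.08).

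Tfrc, which brings iron into cells, was the gene that rose. It was at 10.6 to 56.8 CPM (median 23.7) on RC and 16.3 to 121 CPM (median 35.1) on HFD. The difference was 0.53 log2 (SE 0.13, adjusted p = 0.0016), a 1.45-fold higher level, with a higher HFD mean in 7 of 9 combinations. It was 0.90 in the lower range (adjusted p = 0.00091), 0.28 in the middle range (0.63) and -0.05 in the upper range (0.93), opposite in sign there. The rise was seen in DBA/2J (0.76, adjusted p = 0.0091; medians 38.5 and 22.9 CPM) and in BALB/cJ (0.82, adjusted p = 0.0076; medians 38.8 and 18.1 CPM). With only the animals compared, the BALB/cJ call ended (adjusted p = 0.092). In C57Bl/6J the medians were 26.9 and 24.9 CPM and the difference was 0.01 (95% interval -0.43 to 0.45). A test of the diet effect between the 3 strains did not pass for Tfrc (adjusted p = 0.093).

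The highest Tfrc levels came from BALB/cJ at day 5, where the HFD livers had 79.2, 53.2, 17.4 and 121 CPM and the RC livers 10.6, 12.7, 12.2 and 29.6. Of the 4 HFD animals 3 exceeded every RC animal, and the difference was 1.88 (SE 0.38, adjusted p = 0.0007). With only these animals in the fit its SE was 0.57 and the call ended (adjusted p = 0.19). In DBA/2J at day 13 the HFD livers had 45.9, 37.8, 31.2 and 48.3 CPM against 20.7, 28.1, 24.5 and 19.9 on RC. At day 33 they had 39.2, 31.7, 42.7 and 33.1 CPM against 19.5, 24.9, 15.1 and 20.6. HFD lay above RC without overlap at both days, though neither passed on its own. At DBA/2J day 13 none of the 10 genes passed by limma, 3 had an unadjusted p under 0.05, and 1.91% of all genes passed.

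Trf, the plasma iron carrier, was at 805 to 1330 CPM (median 1063) on RC and 649 to 1234 CPM (median 875) on HFD, a difference of -0.19 (SE 0.040, adjusted p = 0.00026). The ranges of animal numbers gave -0.39, -0.19 and -0.01. Trf fell in DBA/2J (-0.27, adjusted p = 0.0028). In DBA/2J at day 5 the HFD livers had 806, 815, 840 and 858 CPM and the RC livers 1142, 1136, 1183 and 1330 (-0.53, adjusted p = 0.0028; background 6.97%). At day 33 they had 812, 869, 876 and 798 CPM against 1091, 1114, 1075 and 966 (-0.34, adjusted p = 0.046; background 15.9%), which quantile normalization reduced to -0.16 (adjusted p = 0.36). These 2 DBA/2J combinations showed tight groups without overlap. In C57Bl/6J at day 5 HFD was also below RC without overlap (-0.41), but that combination did not pass.

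Slc40a1, the exporter, was at 108 to 283 CPM (median 165) on RC and 107 to 278 CPM (median 160) on HFD. Its difference was -0.05 (95% interval -0.17 to 0.06) and did not pass. In DBA/2J at day 13 the HFD livers had 149, 161, 157 and 139 CPM and the RC livers 165, 234.8, 219 and 234, without overlap, but that combination did not pass either. HFD was also below RC without overlap in C57Bl/6J at day 13 (-0.23), which did not pass.

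Averaged over the strains the ferritin genes were lower on HFD, but the strains differed in the diet effect. Ftl1 was at 1242 to 2388 CPM (median 1721) on RC and 966 to 2437 CPM (median 1453) on HFD, a difference of -0.17 (SE 0.047, adjusted p = 0.0062). Fth1 was at 1218 to 1923 CPM (median 1473) on RC and 1029 to 2674 CPM (median 1347) on HFD, a difference of -0.12 (SE 0.041, adjusted p = 0.035). Quantile normalization ended both calls, with Ftl1 at -0.06 (adjusted p = 0.46) and Fth1 at -0.0044 (adjusted p = 0.96), and number range as a covariate ended that of Fth1 (adjusted p = 0.074). Within the lower, middle and upper ranges Ftl1 gave 0.14, -0.36 and -0.33 and Fth1 0.08, -0.26 and -0.23, opposite in the lower range.

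The diet effect differed between strains for both ferritin genes (F test, adjusted p = 0.0025 for Ftl1 and 0.0078 for Fth1; 15.7% of all genes passed). In C57Bl/6J Ftl1 fell by 0.41 and Fth1 by 0.29 (adjusted p = 0.0010 and 0.012); both calls ended with only the animals compared (adjusted p = 0.068 and 0.085). In DBA/2J the values were 0.13 and 0.12, neither of which passed. DBA/2J minus C57Bl/6J was 0.53 for Ftl1 (adjusted p = 0.0012) and 0.41 for Fth1 (adjusted p = 0.0045), and BALB/cJ minus DBA/2J was -0.35 (0.042) and -0.30 (0.049). The individual livers show both directions. In C57Bl/6J at day 13 Ftl1 was at 1042, 1091, 966 and 1020 CPM on HFD and 1681, 1579, 1242 and 1302 on RC. In DBA/2J at day 5 it was at 2324, 2183, 2183 and 2437 CPM on HFD and 1703, 1707, 1800 and 1956 on RC. HFD was below RC without overlap in the first and above it without overlap in the second. HFD was also below RC in DBA/2J at day 13 (1541, 1520, 1491 and 1374 against 1624, 1755, 1640 and 1781 CPM), so that the direction in DBA/2J was not the same in all groups. Day and number range cannot be told apart there, as day 13 is in the middle and upper ranges and the other days in the lower. The test of the diet effect between days did not pass for Ftl1. Fth1 passed in DBA/2J at day 33, higher on HFD (1603, 1867, 1857 and 2674 CPM against 1367, 1717, 1433 and 1729; 0.34, adjusted p = 0.049), and without HFD animal 2HF211 it was 0.19 (adjusted p = 0.35), and with only the animals compared its adjusted p was 0.24. Ftl1 in BALB/cJ (-0.23, adjusted p = 0.048) was -0.0011 after quantile normalization (adjusted p = 1.00).

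**Figure D3:**
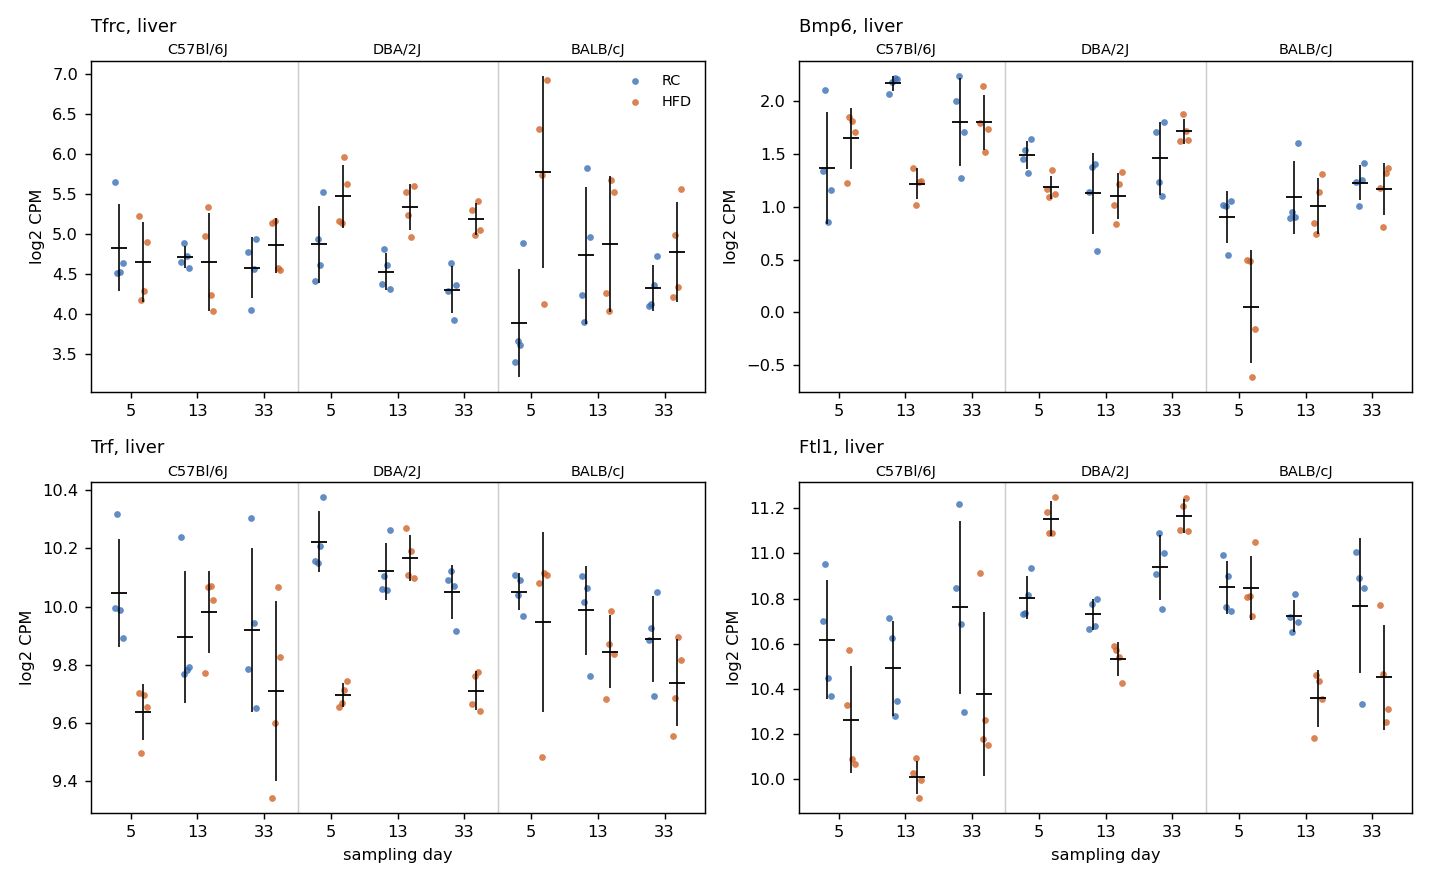
Tfrc, Bmp6, Trf and Ftl1 in liver, log2 CPM for each animal by strain and day, RC in blue and HFD in orange, with bars at the mean ± SD of 4 animals. Tfrc on HFD lies above RC in DBA/2J at days 13 and 33, and Ftl1 lies below RC in C57Bl/6J at day 13 but above it in DBA/2J at day 5.

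By limma, none of the 10 genes passed in C57Bl/6J at day 5 (3 with an unadjusted p under 0.05; background 0.135%) or day 33 (2 such genes; 0.912%), or in BALB/cJ at day 33 (3 such genes; 9.59%). A test of whether the diet effect differed between days also called none of the 10 genes (limma F test; 5 had an unadjusted p under 0.05, and 3.35% of all genes passed). Between day 33 and day 5 on RC none passed (2 with an unadjusted p under 0.05; background 0.666%).

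The other genes of the pathway are given as counts per list, to be read against the 21.2% of all liver genes that passed. Of 19 measured hepcidin regulators in liver, 2 were higher and 3 lower on HFD, with a median of -0.0048. Il6ra, the interleukin 6 receptor, fell by 0.48 (adjusted p = 0.0004), and Tmprss6, the protease that limits BMP signalling, fell by 0.11 (adjusted p = 0.00042); Smad5, a BMP-activated SMAD, rose by 0.12 (adjusted p = 0.00085). Of 7 BMP-SMAD target genes only Smad7, an inhibitory SMAD, passed, with -0.25 (adjusted p = 0.025). In C57Bl/6J Id1, Id3 and Smad7 fell (-0.80, -0.73 and -0.52), whereas in DBA/2J Id1 and Atoh8 rose (0.67 and 0.81). The F test between strains passed for Id1 (adjusted p = 0.0037), Id2 (0.0060), Id3 (0.0047) and Atoh8 (0.0016), against 15.7% of all genes, and not for Smad7 (0.17), Smad6 (0.63) or Id4 (0.44). Of these genes only Id3 passed the F test between days (adjusted p = 0.025), against 3.35% of all genes. Id2 (0.052) and Atoh8 (0.061) were just above the threshold. Of 18 acute phase genes 1 was higher, Lcn2, the iron-siderophore binding lipocalin (0.97, adjusted p = 0.019), and 2 were lower, Cebpd (-0.35) and Orm1 (-0.42). Of 19 measured genes of iron uptake, efflux and storage 2 were higher and 4 lower; Ncoa4, the receptor for ferritin breakdown, fell by 0.27 (adjusted p = 7.1e-05), and Slc11a2, a ferrous iron importer, and Flvcr1, a haem exporter, rose by 0.22 and 0.20 (adjusted p = 0.0026 and 0.013). Of 16 genes of iron sensing and iron-sulphur cluster assembly 4 were lower, among them the ferredoxin Fdx1 (-0.19), Aco1, iron regulatory protein 1 (-0.10), and the glutaredoxin Glrx5 (-0.14). Of 13 haem genes 2 were higher and 3 lower. Alas2, the erythroid aminolevulinate synthase, fell by 0.39 (adjusted p = 9.2e-07). Cpox and Uros, enzymes of haem synthesis, rose by 0.23 and 0.19. Alas2 was lower in BALB/cJ (-0.70) and DBA/2J (-0.49), but not in C57Bl/6J (0.02, adjusted p = 0.97). For named genes outside the BMP-SMAD list, F tests passed as follows. Between strains, Alas2 (adjusted p = 0.00086), Cpox (0.00086), Ncoa4 (0.0021), Cebpd (2.1e-06) and Fdx1 (0.034) passed. Between days, Alas2 (0.00046), Cebpd (0.0023) and Il6ra (0.020) passed, against 3.35% of all genes. For these genes the pooled value does not hold alike in all strains or days. In muscle, against 17.4% of all genes, the same lists gave 1 higher and 1 lower of 19 regulators, 2 higher of 7 BMP-SMAD targets, 1 lower of 14 acute phase genes, 4 lower of 19 iron transport and storage genes, 1 lower of 16 iron-sulphur genes, and 1 higher and 3 lower of 13 haem genes. In adipose tissue, against 2.67%, they gave 2 higher of 19 regulators, 1 lower of 16 acute phase genes and 1 higher of 16 iron-sulphur genes, and none in the remaining lists by limma.

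Hamp2 differed far more between strains than between diets. On RC, Hamp2 in liver was at 697 to 2167 CPM (median 1139) in 12 DBA/2J animals, 9.90 to 74.6 CPM (median 16.9) in C57Bl/6J and 4.42 to 37.2 CPM (median 12.8) in BALB/cJ. DBA/2J did not overlap either strain. Its level was 58.2-fold that of C57Bl/6J (5.86 log2, SE 0.37, adjusted p = 5e-21), and BALB/cJ was 96.9-fold below DBA/2J (-6.60, adjusted p = 4.9e-23). Hamp showed the opposite order, with medians of 715 CPM in BALB/cJ, 497 in C57Bl/6J and 350 in DBA/2J. All 3 groups overlapped; only BALB/cJ against DBA/2J passed (0.88, adjusted p = 0.014).

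In liver DBA/2J and C57Bl/6J differed in 6 of the 10 genes (background 48.1%), BALB/cJ and C57Bl/6J in 2 (46.8%), BALB/cJ and DBA/2J in 2 (42.1%). These shares are near or below the background. Bmp6 and Hfe were highest in C57Bl/6J: Bmp6 was lower by 0.42 in DBA/2J and by 0.71 in BALB/cJ, and Hfe by 0.26 and 0.39. Slc40a1 in DBA/2J exceeded its level in C57Bl/6J (0.38, adjusted p = 0.00088), as did Trf (0.18) and Ftl1 (0.20, which was 0.06 with an adjusted p of 0.56 when number range was a covariate).

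In soleus muscle 2 of 10 genes passed across strains (background 17.4%). Tfrc was at 34.7 to 418 CPM (median 153) on RC and 44.2 to 506 CPM (median 220) on HFD, a difference of 0.40 (SE 0.13, adjusted p = 0.030). Number range as a covariate (0.32, adjusted p = 0.078) and the hepatocyte marker score as a covariate (0.34, adjusted p = 0.060) each ended the call. Within the ranges it was 0.05, 0.57 and 0.46, and none passed. Hfe was at 4.21 to 26.6 CPM (median 7.54) on RC and 4.37 to 23.1 CPM (median 6.22) on HFD, a difference of -0.15 (SE 0.041, adjusted p = 0.0069). Within the ranges it was -0.15, -0.07 and -0.19, and none passed. Of the markers of other cells in muscle, 4 of 6 erythroid genes were lower on HFD, 3 of 5 adipocyte and 4 of 9 lymphoid genes higher, and 2 of 5 myofibre genes lower. The part of these markers in the muscle results was not tested.

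By strain, Tfrc in C57Bl/6J muscle was at 84.0 to 418 CPM (median 169) on RC and 203.3 to 506 CPM (median 346) on HFD (0.84, adjusted p = 0.018), the only gene of 10 to pass there (background 5.75%). Without RC animal 1RC227 of day 5 its adjusted p was 0.051. In BALB/cJ Hfe alone passed (-0.25, adjusted p = 0.014; background 11.5%). In DBA/2J none did by limma (1 with an unadjusted p under 0.05; background 8.73%). At C57Bl/6J day 13 Tfrc was at 222, 506, 359 and 365 CPM on HFD and 108, 84.0, 176 and 204 on RC, without overlap, but that difference of 1.37 did not pass (adjusted p = 0.098). At BALB/cJ day 33 Tfrc was at 210, 143, 152 and 150 CPM on HFD and 64.8, 34.7, 68.5 and 106 on RC, also without overlap (1.35, adjusted p = 0.041; background 3.79%). That call ended with number range (1.02, adjusted p = 0.15) or hepatocyte score (1.15, adjusted p = 0.072) as a covariate.

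The diet effect on Bmp6 in muscle differed between strains by the F test (adjusted p = 0.046; background 9.83%), but no strain passed alone: C57Bl/6J gave 0.26, DBA/2J -0.09 and BALB/cJ -0.12. When each library was left out in turn, none of the 10 genes passed this limma F test in 42 of 72 cases. The values also varied with the day: at day 13 the difference was -0.14 in C57Bl/6J and -0.54 in DBA/2J, and at day 33 it was 0.67 and 0.25. The test between days did not pass (adjusted p = 0.068), and in DBA/2J day 13 cannot be told apart from number range. At C57Bl/6J day 33 it was at 27.0, 29.3, 30.5 and 33.1 CPM on HFD and 15.1, 28.2, 15.3 and 19.3 on RC (0.67, adjusted p = 0.0054; background 4.33%). One RC animal lay within the HFD values, and without another, 1RC210, the difference was 0.56 (adjusted p = 0.12). At DBA/2J day 13 it was at 18.9, 16.6, 16.3 and 17.5 CPM on HFD and 25.9, 25.9, 22.7 and 26.3 on RC, without overlap (-0.54, adjusted p = 0.022; background 4.55%). None of the 10 genes passed the test of the diet effect between days (limma; 2 with an unadjusted p under 0.05; background 0.99%).

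**Figure D4:**
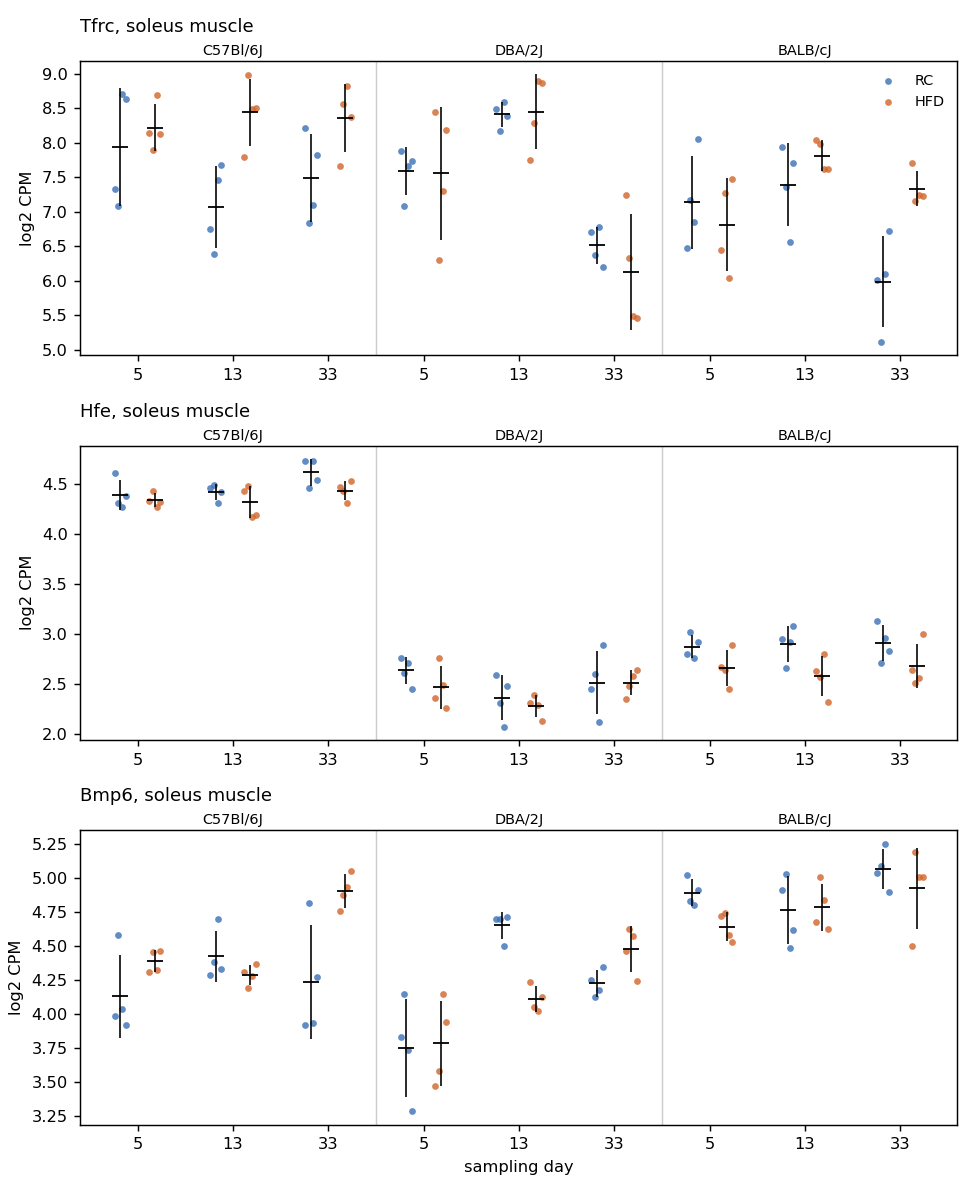
Tfrc, Hfe and Bmp6 in soleus muscle, log2 CPM for each animal by strain and day, RC in blue and HFD in orange, with bars at the mean ± SD of 4 animals. Hfe in C57Bl/6J lies above both other strains, and Tfrc on RC is lower at day 33 than at day 5.

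Levels in muscle also differed between strains and days. Hfe on RC was at 19.3 to 26.6 CPM (median 22.1) in C57Bl/6J, 4.21 to 7.40 CPM (median 5.79) in DBA/2J and 6.30 to 8.72 CPM (median 7.54) in BALB/cJ. C57Bl/6J lay above both others without overlap (-1.97 for DBA/2J, adjusted p = 1.2e-32, and -1.58 for BALB/cJ, adjusted p = 6.8e-28). Hamp2 on RC was at 6.44 to 23.97 CPM in DBA/2J, with medians of 0.213 CPM (4 reads) in C57Bl/6J and 0.206 CPM (3 reads) in BALB/cJ, so DBA/2J was the highest strain here too. DBA/2J and C57Bl/6J muscle differed in 3 of 10 genes (background 37%), BALB/cJ and C57Bl/6J in 6 (44.5%), BALB/cJ and DBA/2J in 6 (40.4%). Bmp6 was higher in BALB/cJ than in either strain (0.64 and 0.70), and Tfrc lower (-0.66 and -0.67). Between day 33 and day 5 on RC only Tfrc passed (-0.89, adjusted p = 0.024; background 2.85%); its adjusted p was at most 0.054 without any one of 1RC251, 3RC209 and 3RC251, which ended the call.

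The low Hamp signal of muscle followed hepatocyte markers. Their score ran from -2.99 to 9.17 log2 CPM over the muscle libraries, with medians of 0.024 on HFD and 2.80 on RC. None of its 5 genes passed between diets by limma, with a median difference of -1.11. After removing the group means, the score had a Pearson r of 0.96 and a Spearman rho of 0.95 with Hamp, 0.95 and 0.92 with Tfr2, and 0.88 and 0.83 with Trf (72 libraries, permutation p = 1e-05 for each r, the smallest the permutations can give, 20 relations). For Hamp, r was 0.95 without the 2 farthest libraries and 0.97, 0.94 and 0.98 in the ranges. Fth1 and Bmp6 had r of -0.08 and -0.07. Of the other genes, r passed for Ftl1 (0.62), Hamp2 (0.57), Hfe (0.42, permutation test, adjusted p = 0.0063), Slc40a1 (0.33, 0.047) and Tfrc (-0.29, 0.020), and not for Fth1 (-0.08) or Bmp6 (-0.07). Hfe and Tfrc are the genes that passed between diets in muscle. With the score as a covariate in the diet comparison over strains, Hfe kept its call and Tfrc lost it. In adipose tissue r was 0.76 for Hamp and 0.76 for Tfr2, and 0.82 and 0.80 without 3HF201 and 3HF208. The strain differences of Hamp (-2.48) and Trf (-1.87) between BALB/cJ and C57Bl/6J in muscle were -0.71 (adjusted p = 0.049) and -0.75 (adjusted p = 0.072) with the score as a covariate.

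**Figure D5:**
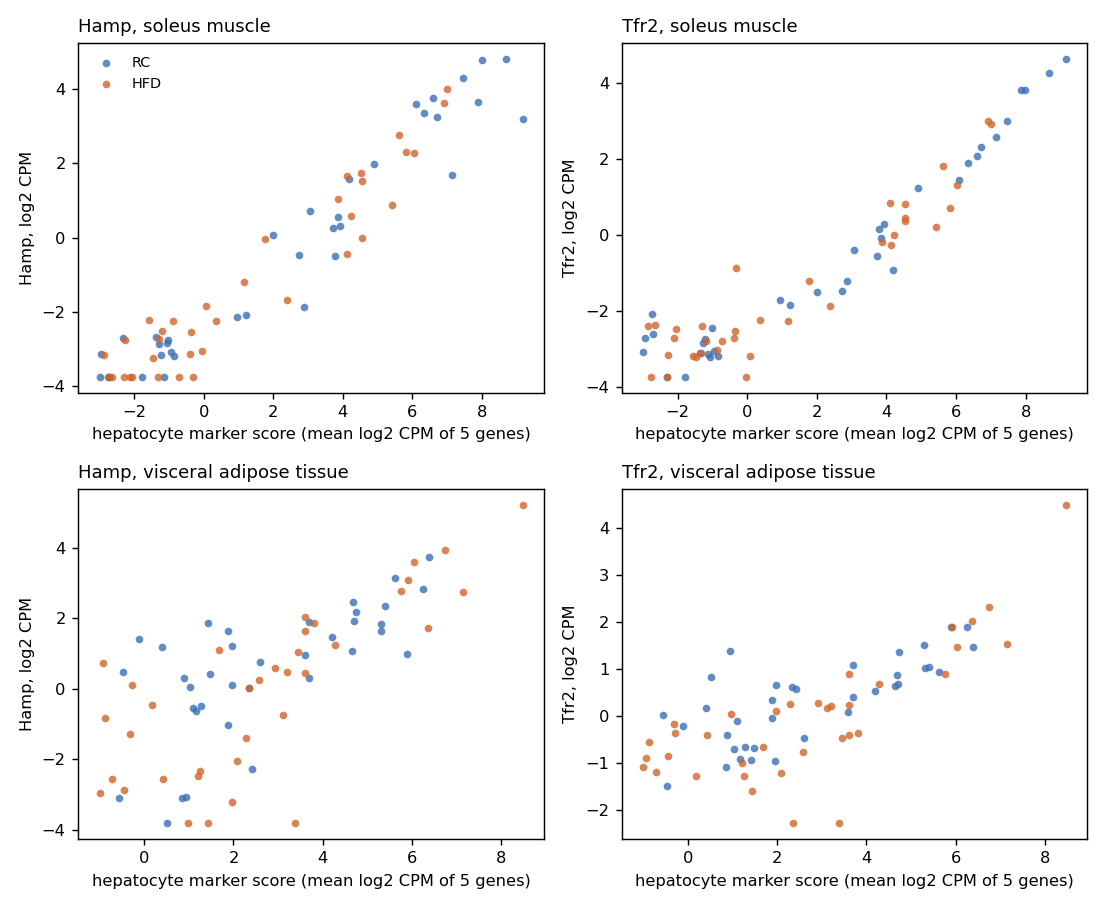
Hamp and Tfr2 (log2 CPM, vertical axis) against the hepatocyte marker score (mean log2 CPM of 5 genes, horizontal axis) in muscle and adipose tissue, a point for each library. Both genes rise with the score in muscle, where the score runs from -2.99 to 9.17.

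In visceral adipose tissue no iron gene passed between diets across strains (limma, background 2.67%). At an unadjusted p under 0.05 there were 3 of 10: Hamp2 (-1.08), Trf (-0.58) and Slc40a1 (0.30). Without the libraries that held islet genes 3.59% of all genes passed, none of the 10 among them, and these values were -1.02, -0.32 and 0.19. Trf was at 26.2 to 370 CPM (median 110) on RC and 1.19 to 325 CPM (median 81.0) on HFD, the lowest values of HFD being those of 3HF201 and 3HF208, and Tfrc at medians of 40.3 and 40.4 CPM (difference -0.0044). By limma, no gene of the 10 passed in C57Bl/6J (1 with an unadjusted p under 0.05; background 0.115%), DBA/2J (1; 0.411%) or BALB/cJ (2; 0.435%), with or without the islet libraries. With covariates some did. Counted over the 3 strains, 2 effects passed with number range and 3 with a score of lymphoid markers. Over all genes the passing effects went from 159 to 1045 and 2207.

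At BALB/cJ day 33 Trf and Fth1 passed (background 10.7%). Trf was at 1.71, 19.2, 15.5 and 16.96 CPM on HFD and 71.7, 104, 46.6 and 105 on RC, a difference of -3.01 (adjusted p = 0.019). The lowest value is from the library labelled 3HF208, one of those with islet genes. Without 3HF208 alone the difference was -2.18 (adjusted p = 0.0996), and the call also ended without RC animal 3RC209 or 3RC259. Without both islet libraries 1.81% of all genes passed, and Trf was at -2.18 (adjusted p = 0.0497). With a score of lymphoid markers as a further covariate it was -1.26 (adjusted p = 0.10). Fth1 was at 1104, 1457, 1612 and 1249 CPM on HFD and 2843, 3054, 1718 and 3097 on RC (-0.96, adjusted p = 0.033); without the islet libraries it was -0.86 (adjusted p = 0.071), with the lymphoid score as well it was -0.43 (adjusted p = 0.28), and after quantile normalization -0.42 (adjusted p = 0.15).

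Adipose tissue of DBA/2J and C57Bl/6J on RC differed in 3 of 10 genes (background 41.7%), that of BALB/cJ and C57Bl/6J in 2 (11.2%), that of BALB/cJ and DBA/2J in 2 (16.3%). Hfe was again highest in C57Bl/6J, at 46.3 to 109 CPM (median 54.9), against 16.4 to 47.8 CPM (median 39.2) in DBA/2J (-0.86, adjusted p = 0.0029) and 20.6 to 78.8 CPM (median 33.04) in BALB/cJ (-0.69, adjusted p = 0.034). Bmp6 was highest in DBA/2J (0.94 above C57Bl/6J, adjusted p = 0.019; BALB/cJ minus DBA/2J -1.09, adjusted p = 0.015). The lymphoid score ran from -0.39 to 7.99 log2 CPM over the libraries (medians 6.38 on HFD and 6.99 on RC). With it as a covariate, the Bmp6 difference of DBA/2J from C57Bl/6J was 0.06 (adjusted p = 0.89) and that of Slc40a1 went from -0.66 to -0.30 (adjusted p = 0.51). Hamp2 was lower in BALB/cJ than in both other strains (-2.62 and -2.07), on medians of 3.5 reads in BALB/cJ, 70.5 in C57Bl/6J and 17 in DBA/2J. The difference from DBA/2J (limma, adjusted p = 0.040) lost the call in 14 of 72 cases of a library left out. With number range as a covariate it was -1.99 (adjusted p = 0.062), and with the lymphoid score -2.04 (adjusted p = 0.0503). Hamp2 in adipose tissue also had r = 0.53 with the hepatocyte score (permutation test, adjusted p = 5e-05).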

How the data were processed

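Each tissue had 1 deposited table of log2 CPM, read counts scaled to library size on a log2 scale, which the authors made from RNA-seq reads; per the submitters' processing notes the tools were STAR 2.5.3a and edgeR and the build GRCm38. Counter, annotation, filter and scaling: not given in the sources used here. Deposited values match whole reads plus a prior of 0.25 reads in liver and 2 reads in the other tissues, so log2 differences of rarely detected genes are understated. Of the labels' 224 libraries 216 had a column; 8 liver libraries were not analysed here. Days follow each sample's label.

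The 10 genes and all gene lists were chosen with earlier results of these data known. Genes at a log2 CPM of 0 or more in at least 4 of 72 libraries were tested, besides 1 adipose gene that was not. limma 3.58.1 (R 4.3.3, trended variance) was fitted to the 18 group means of each tissue (54 residual degrees of freedom), two-sided, with Benjamini-Hochberg adjustment over all genes and a threshold of 0.05. The diet effect is the mean over strains and days of HFD minus RC. Genes were named as follows: all 10 members, of each pathway list up to 3 passing genes of smallest p, and for Hamp, Hamp2 and Tfrc the 3 genes most like them among those at or above the median level. Relations used 100000 permutations of residuals. Python 3.11.15, pandas 2.3.3, numpy 2.4.6, scipy 1.17.1 and matplotlib 3.10.9 were used, and the limma script was tested on simulated data. Alternatives were normalization, filter, prior count, variance trend, number range, replicate block, subsets of animals and marker scores; those on islet libraries and hepatocyte score were chosen after seeing the data.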

Additional observations from a re-analysis of the deposited data

Results flagged for a closer look

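In 13 of 234 groups of 4 animals 1 library was far from the other 3 (the gap to its neighbour, as a share of the group's range, exceeded Dixon's 95% critical value); chance alone gives about 1 in 20. In log2 CPM, in liver, Bmp6 was lowest at 0.54 in BALB/cJ RC day 5 (animal 3RC203) and highest at 1.61 in BALB/cJ RC day 13 (animal 3RC255). Tfr2 was highest at 8.79 in C57Bl/6J RC day 5 (animal 1RC248) and at 9.14 in DBA/2J RC day 13 (animal 2RC231). Tfrc was highest at 5.64 in C57Bl/6J RC day 5 (animal 1RC226). Trf was lowest at 9.77 in C57Bl/6J HFD day 13 (animal 1HF230) and at 9.48 in BALB/cJ HFD day 5 (animal 3HF202), and highest at 10.24 in C57Bl/6J RC day 13 (animal 1RC228). Slc40a1 was highest at 7.53 in DBA/2J RC day 5 (animal 2RC200). Fth1 was lowest at 10.46 in BALB/cJ RC day 5 (animal 3RC251), and Ftl1 highest at 10.92 in C57Bl/6J HFD day 33 (animal 1HF209). In muscle, Bmp6 was lowest at 4.50 in DBA/2J RC day 13 (animal 2RC230), and Tfrc highest at 7.71 in BALB/cJ HFD day 33 (animal 3HF208).

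The diet effect differed between strains, by an F test across the 3 strains, for Fth1 in liver (adjusted p = 0.0078), Ftl1 in liver (adjusted p = 0.0025) and Bmp6 in muscle (adjusted p = 0.046).

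Ins2, a gene outside the comparisons, was at 17.81 and 18.39 log2 CPM in the adipose libraries labelled BALB/cJ HFD day 5 (animal 3HF201) and BALB/cJ HFD day 33 (animal 3HF208), above every other adipose library.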

How the results depend on the processing

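Of 67 effects that passed (35 of them in liver, 23 in muscle and 9 in the adipose tables), tried under alternatives in 558 cases, 482 kept their direction and call, 71 lost the call and 5 changed sign. Some of the 482 could hardly change. The filter removed no gene in liver or muscle and 1 in adipose tissue, so its 67 cases nearly repeat the main fit. For diet effects over all strains, fitting only the animals compared also repeats the main fit. Signs changed for Hfe (0.0504), Fth1 (0.0803) and Ftl1 (0.136) in liver within the lower number range, Tfrc in liver within the upper range (-0.0538), and Bmp6 in adipose tissue, DBA/2J minus C57Bl/6J, with the lymphoid score and without the 2 islet libraries (-0.0177). The cause was not tested. Counts that follow are of effects passing. In liver the diet effect over strains passed for 8 genes, and for 5 after quantile normalization (1 higher, 4 lower). Within the lower, middle and upper ranges it passed for 4, 1 and 1. These fits used the 29, 18 and 20 animals of strain and day combinations with both diets in that range. Among all liver genes 2676 passed, 2576 after quantile normalization, and 3247, 85 and 158 within these ranges. The effects in single strains went from 9 to 5 when only the animals compared were fitted (4875 to 4517 over all genes). Differences between days went from 0 to 2 (quantile normalization) or 1 (number range as a covariate), and over all genes from 422 to 440 or 577. In muscle the diet effect went from 2 to 1 with number range or hepatocyte score as a covariate and to 0, 0 and 0 within ranges. Among all muscle genes it went from 2368 to 2019 or 2334, and to 947, 589 and 177 within ranges. The difference between strains went from 1 to 2 with the hepatocyte score (1341 to 1357 over all genes). Day 33 against day 5 went from 1 to 0 with only the animals compared (389 to 49 over all genes). In adipose tissue single strains went from 0 to 2 (number range) or 3 (lymphoid score); strain and day from 2 to 0 (only the animals compared), 1 (without the islet libraries) or 0 (these and the lymphoid score); and strain pairs from 7 to 11 with the last. Over all adipose genes the diet effect passed for 441, and for 238 to 2748 under these alternatives, number ranges aside. Single strains went there from 159 to 1045 (number range) or 2207 (lymphoid score). Strain and day went from 1812 to 157, 444 or 1310, in the order above, and strain pairs from 11449 to 12575.

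Leaving out each library in turn gave 4824 cases, of which 352 lost the call and none changed sign. In many cases the library was outside the groups compared. The difference itself then stays the same and only the shared spread moves, so its sign could not change. In liver the counts ran from 5 to 8 for diet over strains, 6 to 12 in single strains, 5 to 10 by strain and day, 2 to 3 and 0 to 1 for differences between strains and between days, 8 to 12 for strain pairs and 0 to 0 for day 33 against day 5. In the same order they ran from 2 to 3, 2 to 4, 2 to 4, 0 to 1, 0 to 1, 13 to 18 and 0 to 2 in muscle, and 0 to 0, 0 to 1, 0 to 4, 0 to 0, 0 to 0, 4 to 9 and 0 to 0 in adipose tissue. Hamp, Hamp2, Tfrc, Trf and Ftl1 in liver, over strains, passed without any one library; Fth1 lost the call in 7, Bmp6 in 28 and Hfe in 46 of 72 cases. In single strains and days the call was lost in 48 of 72 cases for Hamp, 39 for Ftl1 and 9 for Hfe in BALB/cJ liver, 48 for Fth1, 7 for Trf and 6 for Hamp2 in DBA/2J liver at day 33, 6 for Bmp6 in C57Bl/6J liver at day 13, and 5 for Hfe in BALB/cJ liver at day 13. In muscle it was lost in 7 for Tfrc at BALB/cJ day 33 and 5 for Bmp6 at DBA/2J day 13, and in adipose tissue in 5 for Fth1 at BALB/cJ day 33.

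With the replicate block, which treats animals of the same number as a pair though they are different animals, the correlation within numbers was 0.14 for liver, 0.04 for muscle and -0.24 for the adipose libraries. The block moved differences between days in liver from 0 to 1 (422 to 583 over all genes). It moved strain and day in adipose tissue from 2 to 1 (1812 to 326 over all genes), where Fth1 at BALB/cJ day 33 lost the call (-0.92, adjusted p = 0.072). The planned edgeR test was not run, because the tables hold log2 values. Depth limits Bmp6 in liver and Hamp, Hamp2 and Tfr2 outside it, whose libraries hold few reads.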
